A study of Bos taurus with 8 samples.

Results

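The synthesis of cholesterol and of fatty acids was followed through 29 genes in cells taken from bovine muscle and grown in serum-free culture. The genes were chosen by symbol, as enzymes of the sterol and fatty acid pathways with their regulators. All 29 were found by their symbol among the 21880 genes of the deposited feature tables. They comprised 7 genes of the mevalonate pathway, 3 that make squalene and lanosterol, 8 that turn lanosterol into cholesterol, 4 regulators or carriers of sterols, and 7 of fatty acid synthesis and desaturation.

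Cells make cholesterol from acetyl-CoA through mevalonate, isoprenoid units, squalene and lanosterol, and they make long-chain fatty acids from the same precursor. Both routes are controlled by the sterol regulatory element binding proteins (SREBPs), which are encoded by SREBF1 and SREBF2. When sterols in the endoplasmic reticulum are scarce, SREBPs are carried to the Golgi, cleaved, and enter the nucleus to activate these genes, and INSIG1 holds them back when sterols are plentiful. Cells that receive lipoproteins from serum take up much of their cholesterol ready made, and dividing cells need sterols and phospholipids for new membrane.

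The cells came from the semitendinosus muscle of 10 Belgian Blue cattle, 5 calves and 5 adults, after digestion with collagenase. Single cells were sequenced with the Chromium 3′ v3.1 kit at Timepoint 1 (fresh muscle), at Timepoint 2 (passage 0, unsorted cells grown on fibronectin for 72 h without serum, although the label also names both sorted types) and at Timepoints 3, 4 and 5 (passages 2, 5 and 8, in the same serum-free medium). From passage 2 on, and according to the methods alone, donors 1, 2 and 9 were grown unsorted on fibronectin, donors 5, 6 and 10 as sorted satellite cell (SC) cultures on laminin-521, and donors 4, 7 and 8 as sorted fibro-adipogenic progenitor (FAP) cultures on collagen I. Donor 3 was sequenced at Timepoint 1 alone. The donors of a timepoint were pooled in 1 library and separated again by genotype, so that each library holds 1 timepoint, and timepoint and library cannot be told apart. Donor set, sorting and coating are likewise bound together from passage 2.

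The 5 libraries held 36129 quality-controlled cells, between 2772 and 10405 each, with a median of 4184 UMIs (unique molecular identifiers, counted molecules) per cell at Timepoint 1 and of 18340 to 27239.5 at the others; 129 barcodes occurred in more than 1 library. Raw UMIs were summed per donor and deposited cell type, sums of at least 10 cells were kept, and levels are given as CPM, the UMIs of a gene scaled to a common library total with TMM factors. Levels are compared between samples for a gene and not between genes. FAP markers (PDGFRA, DCN, LUM, DPT) summed to 20211–23704 CPM (median 21899) in FAPs at Timepoint 1 and to 74.9 at the median in SCs. At Timepoint 2 the cells labeled SCs had 1439.9 against 3878 in FAPs, their CALCR stood at 2.05 CPM against 87.6 in muscle, and CHRDL2 was at 0 in the median donor, while ITGA7 (46.9–61.0 CPM) and MYF5 (20.3–102 CPM) stayed above FAPs (4.61–6.82 CPM and 1.798–5.88 CPM). Of the 5 SC markers (MYF5, PAX7, CALCR, CHRDL2, ITGA7) 4 could be tested in SCs between the 2 timepoints, and 4 of 4 fell. Their sum in SCs went from 790–2258 CPM (median 1198) to 78.8–168 CPM (median 122). The part of FAP RNA in the SC values was not tested. The 4 markers of vascular endothelial cells (VECs; PECAM1, VWF, CDH5, KDR) summed to 1937–2720.2 CPM (median 2237) in VECs at Timepoint 1 and to 1889.9–2618 CPM (median 2053) at Timepoint 2, and 0 of the 4 rose and 2 fell.

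The first comparison asked what 72 h in serum-free culture did to these genes within a cell type. A gene was called when its adjusted p (edgeR's quasi-likelihood test, Benjamini-Hochberg over all genes tested) lay under 0.05 and its log2 fold change (log2FC, given ± SE) beyond 1 in either direction. In FAPs 27 of the 29 genes had enough UMIs to be tested, and 23 rose and 0 fell, where 20.9% of the 9208 genes tested rose and 22.5% fell. In SCs 20 of 25 rose and 0 fell, against 15.8% and 18.5% of all genes, and in VECs 13 of 22 rose and 0 fell, against 15.6% and 19.6%. The muscle samples alone carried 20 of the tested genes past the low-count filter in FAPs, 5 in SCs and 8 in VECs, of which 17, 2 and 4 rose. The other tested genes passed only with the culture samples counted in, a filter that favors genes high in culture. They were PMVK, IDI1, LSS, HSD17B7, DHCR7, SCD and ACACA in FAPs, all but HMGCS1, MSMO1, SREBF1, SREBF2 and ACLY in SCs, and all but HMGCS1, FDPS, CYP51A1, MSMO1, SC5D, SREBF2, ACLY and FASN in VECs. Their fold changes, and the counts and medians over tested genes, are a description of these samples. The median log2FC over the genes tested was 2.35 in FAPs, 2.21 in SCs and 1.36 in VECs. The scalings used center most genes near 0 by design. With them no median over all genes tested lay further than 0.092 from 0 in any comparison. That closeness is therefore no test of a shift shared by all genes.

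The 29 genes together held 396–864 CPM (median 541) in FAPs of the 10 donors at Timepoint 1 and 3107–4631 CPM (median 4189) in those of the 9 donors at Timepoint 2. The same sum went from 437–628 CPM (median 538) to 3323–3944 CPM (median 3701) in SCs, and from 455–1032 CPM (median 750.2) to 1739–3071 CPM (median 2739) in VECs. In none of the 3 types did the donors of Timepoint 1 overlap with those of Timepoint 2. FAPs and SCs lay close together at Timepoint 2, and VECs had started with somewhat higher sums in muscle and ended below both. The heat map of mean levels shows the step between the first and the second timepoint in most genes.

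**Figure D1:**
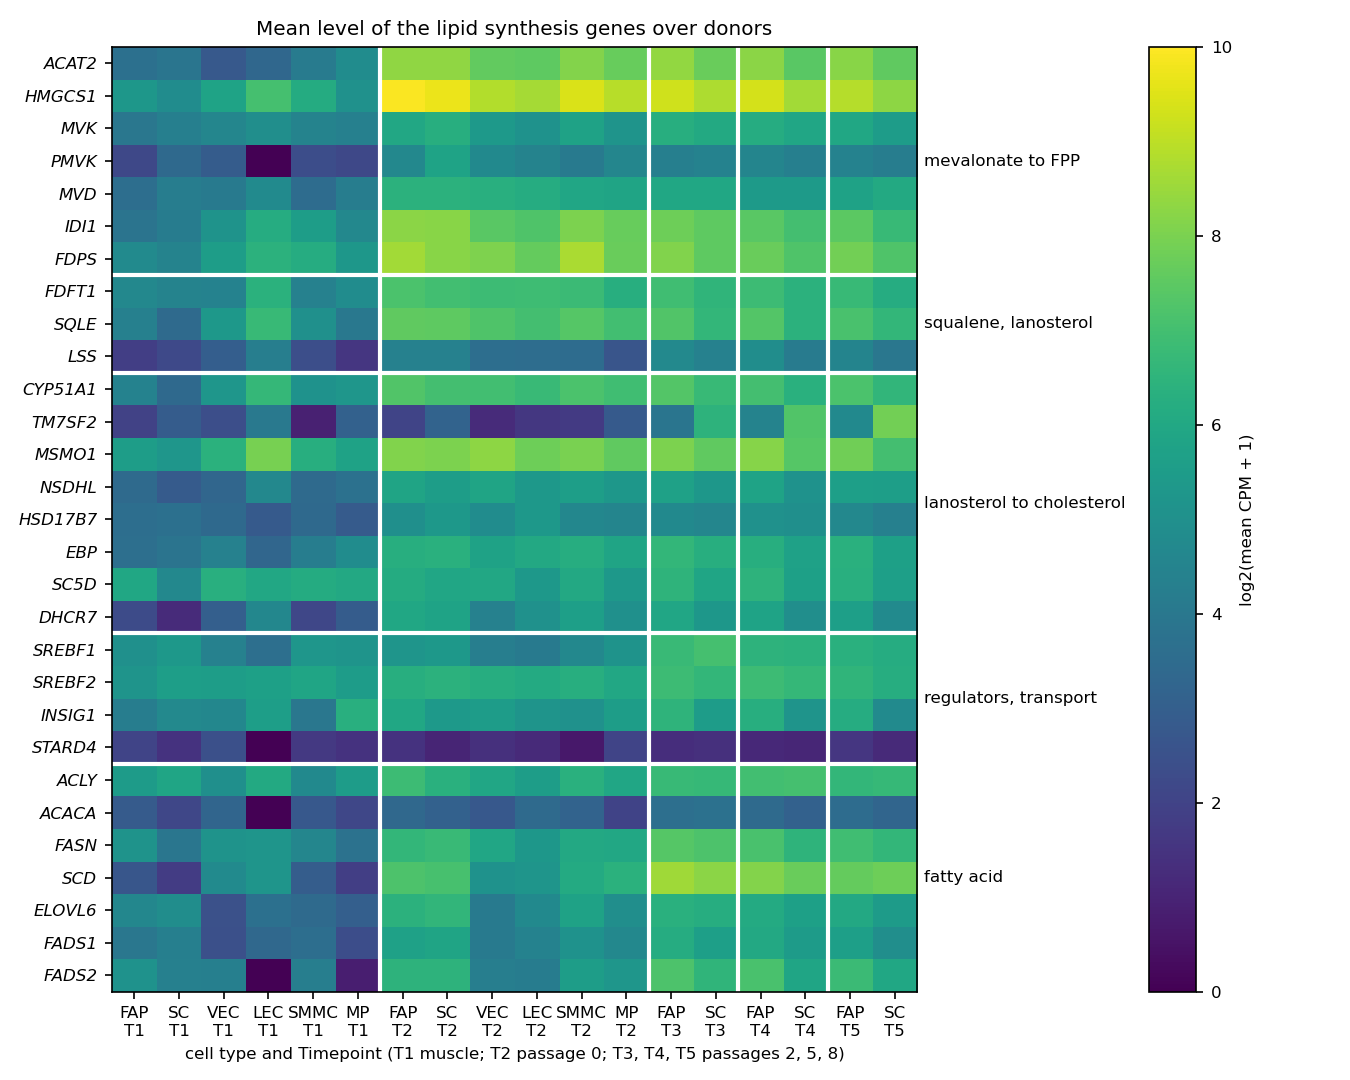
Mean level over donors of each of the 29 genes, as log2(mean CPM + 1), by cell type and timepoint; rows are grouped by role, white lines part roles and timepoints, T1 is muscle, T2 passage 0 and T3 to T5 passages 2, 5 and 8. Most rows turn brighter from T1 to T2 in FAPs, SCs, VECs and SMMCs, SREBF1 and SCD are brighter at T3 than at T2 in FAPs and SCs, and TM7SF2 is so in SCs.

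Of the mevalonate pathway, all 7 genes rose in FAPs, all 7 in SCs and 6 of 7 in VECs. ACAT2, the cytosolic thiolase that joins acetyl-CoA into acetoacetyl-CoA, ranged over 3.12–28.98 CPM (median 8.19) in FAPs of muscle and over 253–372 CPM (median 337) after 72 h. Every cultured donor lay above every muscle sample, with a log2FC of 4.64 ± 0.22 (adjusted p = 1.43e-14). In SCs it went from 2.70–29.6 CPM (median 9.65) to 282–363 CPM (median 331) and in VECs from 0–9.76 CPM (median 5.67) to 132–246 CPM (median 192), again without overlap, with log2FC of 4.21 ± 0.19 and 4.52 ± 0.20. ACAT2 thus had nearly the same log2FC in all 3 types.

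HMGCS1, the HMG-CoA synthase that follows it, showed 21.1–113 CPM (median 28.6) in FAPs of muscle, the highest in donor 10, and 670.1–1145 CPM (median 1062) at Timepoint 2. In SCs its levels were 13.5–44.0 CPM (median 26.9) before and 709–985 CPM (median 835) after, and in VECs 34.0–76.7 CPM (median 55.5) and 283–626 CPM (median 486). The groups were apart in each type, and the highest VEC sample of Timepoint 2 lay below the lowest sample of FAPs and of SCs. The log2FC was 4.45 ± 0.27 in FAPs, 4.57 ± 0.12 in SCs and 2.78 ± 0.17 in VECs (adjusted p = 6.09e-12, 1.01e-19 and 2.11e-13). As the fit weights donors by depth, its fold change is not the ratio of the mean levels.

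Further down the same route, IDI1, the isomerase of the isoprenoid unit, went from 0–22.7 CPM (median 15.7) to 195–397 CPM (median 329) in FAPs, with a log2FC of 4.31 ± 0.23. FDPS, which builds farnesyl diphosphate, went from 13.99–45.5 CPM (median 23.6) to 320.0–457 CPM (median 398), with a log2FC of 3.71 ± 0.14 (adjusted p = 1.42e-17). Both groups were apart for both genes, also in SCs (log2FC 3.62 ± 0.14 and 3.43 ± 0.17) and in VECs (2.04 ± 0.26 and 2.25 ± 0.17). PMVK, the phosphomevalonate kinase, was sparse, with 25 UMIs in all FAPs of muscle, and rose with a log2FC of 2.85 ± 0.23 in FAPs and of 1.73 ± 0.29 in VECs. MVD, the decarboxylase, had a log2FC of 1.9598 ± 0.21 in VECs. MVK, the mevalonate kinase, was the 1 gene of this group without a call there, by its size, at 0.46 ± 0.19 (95% interval 0.07 to 0.86, adjusted p = 0.0339).

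Of the genes for squalene and lanosterol, 3 of 3 rose in FAPs, and 2 of the 2 tested, FDFT1 and SQLE, rose in SCs and in VECs. In SCs and VECs both had passed the low-count filter only with the culture samples counted in. SQLE, the squalene monooxygenase, showed 1.70–50.8 CPM (median 18.2) in FAPs of muscle and 147–207 CPM (median 198) after 72 h. It showed 0–21.3 CPM (median 10.7) and 162–212 CPM (median 179) in SCs, with no UMI at all in some muscle samples. The groups did not overlap, with a log2FC of 3.06 ± 0.24 (adjusted p = 2.54e-10) in FAPs and a log2FC of 3.57 ± 0.18 in SCs. FDFT1, the squalene synthase, rose in VECs from 8.83–42.5 CPM (median 20.5) to 81.9–145 CPM (median 115), with a log2FC of 2.21 ± 0.19. LSS, the lanosterol synthase, had too few UMIs to be tested in SCs and VECs.

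Between lanosterol and cholesterol, FAPs and SCs each had 6 of 7 tested genes higher in culture, and VECs 5 of 6. DHCR7, which reduces the last precursor to cholesterol, was close to undetected in muscle, with 28 UMIs in all FAPs and 6 in all SCs. It reached 42.5–77.5 CPM (median 60.6) in FAPs and 44.6–62.6 CPM (median 56.9) in SCs at Timepoint 2, above every muscle sample of its type, with log2FC of 3.97 ± 0.32 and 4.57 ± 0.32. CYP51A1, the lanosterol demethylase, rose in SCs from 0–21.7 CPM (median 8.69) to 108–146 CPM (median 129) (log2FC 3.19 ± 0.21). NSDHL, a sterol dehydrogenase, rose in VECs from 2.66–17.5 CPM (median 8.93) to 30.8–79.5 CPM (median 60.5) (log2FC 2.30 ± 0.24). SC5D, the sterol desaturase, was the exception in all 3 types.

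SC5D was not called in FAPs, with 44.8–69.8 CPM (median 61.8) before and 56.9–90.3 CPM (median 69.4) after (log2FC 0.08 ± 0.09, 95% interval -0.11 to 0.26, adjusted p = 0.443). Its log2FC was 0.84 ± 0.17 in SCs and -0.58 ± 0.13 in VECs, which met the threshold on p (adjusted p = 0.000105 and 0.000338) and missed the one on size. The samples of both timepoints overlapped in each type. Without the filter on low counts the SC value was 1.1997, past both thresholds. TM7SF2, a sterol reductase that acts after CYP51A1, had too few UMIs for a test in all 3 types.

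Among the regulators, neither SREBP gene was called in any of the 3 types. SREBF1 showed 13.5–52.6 CPM (median 33.4) in FAPs of muscle and 24.5–44.6 CPM (median 35.1) at Timepoint 2, 19.6–65.2 CPM (median 36.8) and 32.7–52.1 CPM (median 36.8) in SCs, and 8.83–42.0 CPM (median 17.8) and 12.6–27.5 CPM (median 14.9) in VECs. All 3 pairs of groups overlapped. Its log2FC was 0.07 ± 0.17 (95% interval -0.27 to 0.42), -0.28 ± 0.19 (-0.67 to 0.10) and -0.45 ± 0.25 (-0.96 to 0.05), with adjusted p = 0.699, 0.169 and 0.101. SREBF2 showed 18.7–59.5 CPM (median 30.2) and 58.9–87.8 CPM (median 78.3) in FAPs, overlapping at the edges, and its log2FC was 0.89 ± 0.15, 0.46 ± 0.14 and 0.34 ± 0.15. These values met the threshold on p (adjusted p = 9.84e-06, 0.00343 and 0.0494) and not that on size, except that in FAPs, with no filter on low counts, SREBF2 passed both at 1.16.

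INSIG1 was called in FAPs and not in SCs or VECs. In FAPs it went from 3.12–42.8 CPM (median 13.7) to 48.6–82.1 CPM (median 61.7) with a log2FC of 1.65 ± 0.25 (adjusted p = 4.5e-06). In SCs it showed 12.2–39.8 CPM (median 24.4) and 31.5–46.4 CPM (median 40.2), and in VECs 0–51.7 CPM (median 22.4) and 40.1–52.8 CPM (median 44.8). The groups were apart in FAPs and overlapped in SCs and VECs. The log2FC in the latter pair was 0.36 ± 0.18 (95% interval -0.01 to 0.72, adjusted p = 0.0722) and 0.55 ± 0.26 (0.00 to 1.10, adjusted p = 0.0657). STARD4, which carries sterols between membranes, had too few UMIs to be tested in any comparison of Timepoints 1 and 2.

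**Figure D2:**
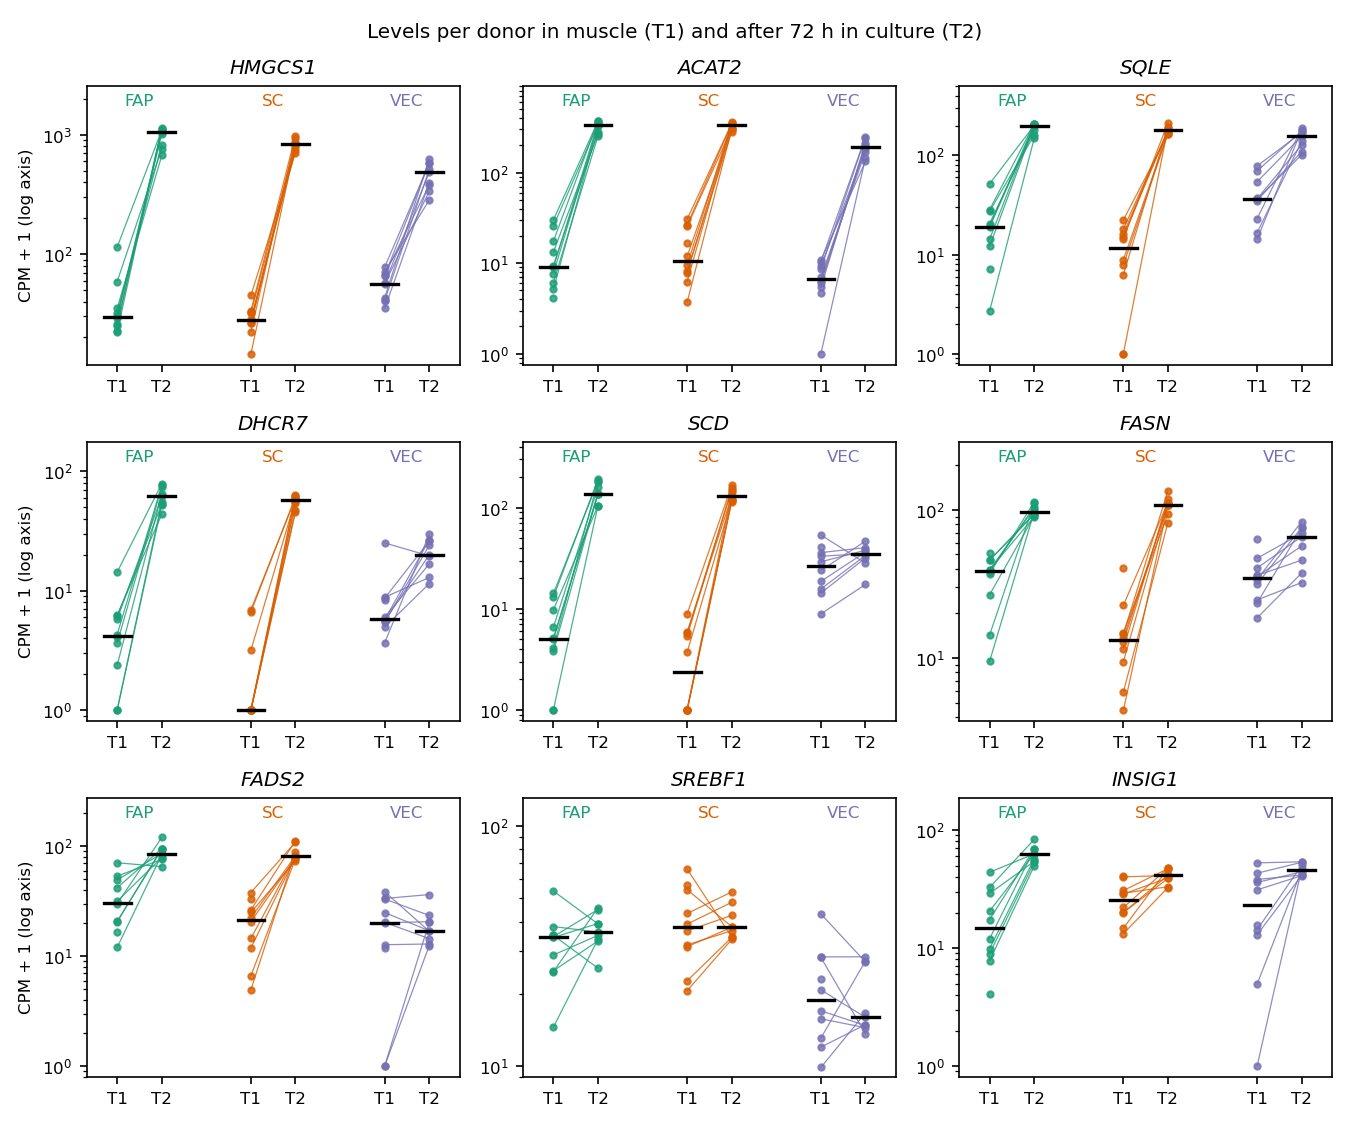
Level of 9 genes in each donor, as CPM + 1 on a log axis, in FAPs, SCs and VECs at Timepoint 1 (T1, 10 donors) and Timepoint 2 (T2, 9 donors); lines join a donor's samples and black bars are medians. HMGCS1, ACAT2 and SQLE separate fully in all 3 types, SCD does so in FAPs and SCs and FADS2 in SCs, and SREBF1 overlaps in all 3.

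Of the fatty acid synthesis genes, FAPs had 6 of 7 higher in culture, SCs 5 of the 6 tested, and VECs 0 of the 4 tested, the other 3 having too few UMIs there. SCD, the desaturase that makes oleate, showed 0–13.2 CPM (median 4.06) in FAPs of muscle and 104–189.9 CPM (median 137) after 72 h, and 0–7.90 CPM (median 1.35) and 113–165 CPM (median 128) in SCs. In VECs it showed 7.89–52.7 CPM (median 25.6) and 16.4–45.7 CPM (median 34.2). The samples of both timepoints were apart in FAPs and SCs and overlapped in VECs, whose median in muscle was above that of FAPs and SCs. Its log2FC was 4.68 ± 0.26 in FAPs and 4.98 ± 0.25 in SCs, where muscle held 42 and 11 UMIs in all. It was 0.02 ± 0.23 in VECs (95% interval -0.44 to 0.48, adjusted p = 0.943).

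FASN, the fatty acid synthase, went from 3.43–39.8 CPM (median 12.3) to 81.1–134 CPM (median 107) in SCs, with a log2FC of 2.74 ± 0.20, and from 8.51–49.9 CPM (median 37.9) to 88.8–112 CPM (median 96.02) in FAPs, with a log2FC of 1.498 ± 0.16 (adjusted p = 9.85e-09). In VECs its levels were 17.7–62.1 CPM (median 33.7) and 31.3–82.4 CPM (median 65.0), which overlapped (log2FC 0.46 ± 0.19, adjusted p = 0.0336). FADS2, the desaturase at the entry to polyunsaturated fatty acids, rose in SCs (log2FC 2.06 ± 0.23) and FAPs (1.18 ± 0.21) and gave -0.64 ± 0.30 in VECs (95% interval -1.26 to -0.02, adjusted p = 0.0585). ACLY, which makes cytosolic acetyl-CoA for both routes, rose in FAPs (1.25 ± 0.16). With every FAP sample thinned to the smallest UMI total, ACLY (0.92) and FADS2 (0.97) no longer reached the size. For ACLY, SCs gave 0.03 ± 0.21 (95% interval -0.42 to 0.47, adjusted p = 0.918). FADS1 and FADS2 overlap each other in the RefSeq annotation of the later assembly ARS-UCD2.0, and SREBF1, ACAT2 and ACACA each overlap another protein-coding gene there, so their counts may hold UMIs of a neighbor.

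**Figure D3:**
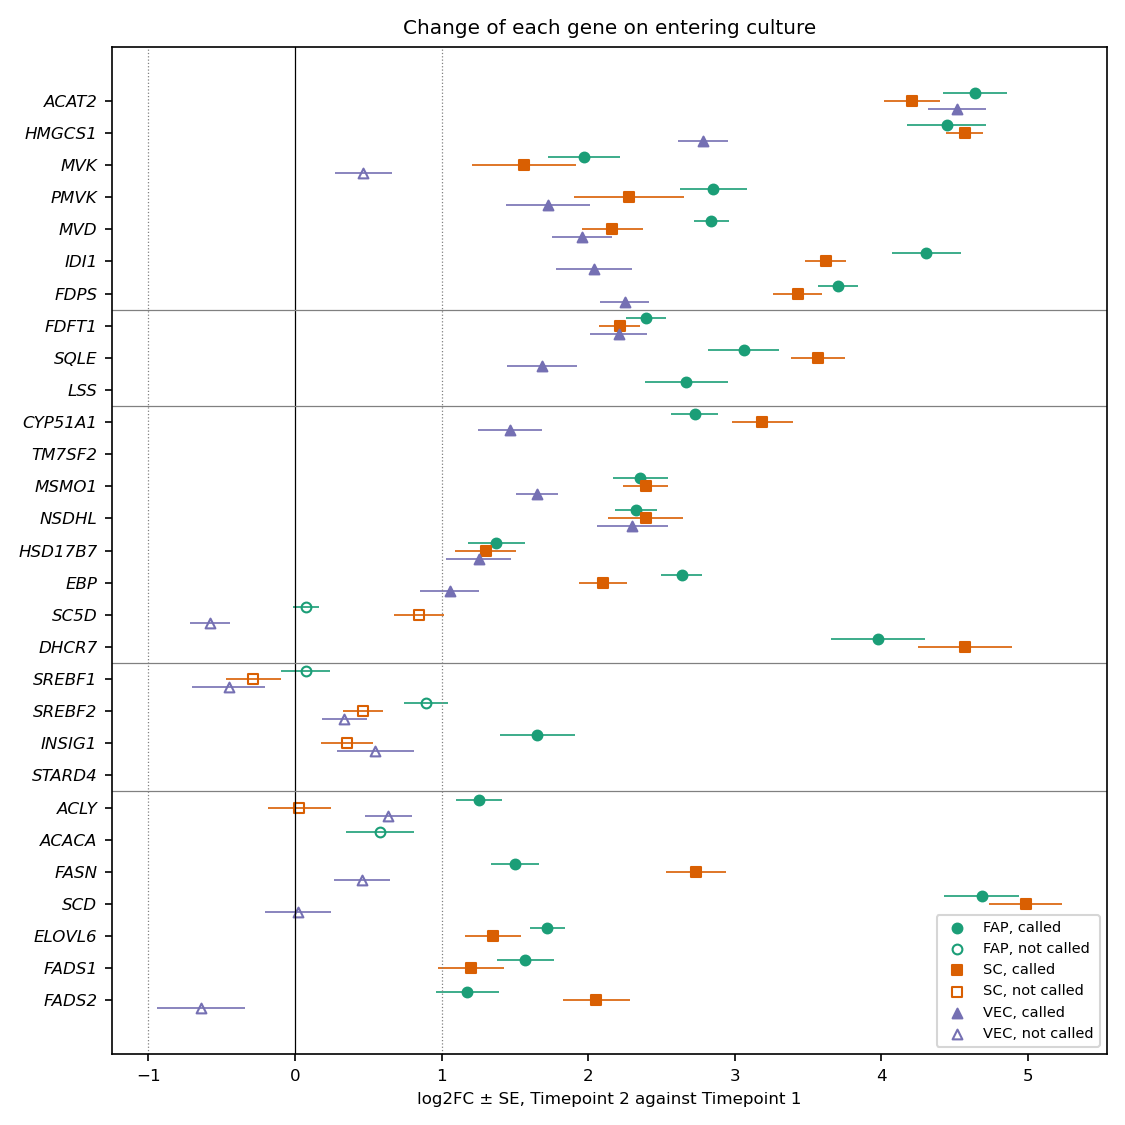
log2FC ± SE of each gene at Timepoint 2 against Timepoint 1 in FAPs, SCs and VECs; filled symbols passed both thresholds, open ones did not, dotted lines mark a log2FC of 1 in either direction, and a missing symbol was not tested. The 13 genes called in all 3 types lie right of 1, most with VECs lowest, and the VEC symbols of SCD, FASN, ACLY and FADS2 are open.

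In all, 13 genes rose in each of the 3 types, namely ACAT2, HMGCS1, PMVK, MVD, IDI1, FDPS, FDFT1, SQLE, CYP51A1, MSMO1, NSDHL, HSD17B7 and EBP, where 8.12% of the 4633 genes tested in all 3 types did so. Of these, HMGCS1 and MSMO1 passed the low-count filter on the muscle samples alone in all 3 types. None of the 13 belongs to fatty acid synthesis. In FAPs, SCs and VECs alike, each called gene was higher at Timepoint 2 in 9 of 9 donors sampled at both timepoints. As scaled for the levels given here, muscle and culture overlapped in HSD17B7 and FADS2 among the called genes of FAPs. They overlapped in FADS1 among those of SCs and in 0 of those of VECs. As scaled in the fit of VECs, 4 genes between lanosterol and cholesterol were apart, where 5 were called. The share of all genes without overlap was not counted, so these counts only describe the called genes.

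Other marker lists moved with the timepoint in the same samples. The 4 genes of the early response to dissociation (FOS, JUN, EGR1, ATF3) summed to 2259.9–5649.9 CPM (median 3110.0) in FAPs of muscle and 302–505 CPM (median 402) at Timepoint 2, and 4 of 4 fell. The 5 muscle fiber genes (ACTA1, CKM, MYH7, TNNT1, MB) went from 569.9–885 CPM (median 713) to 1.63–3.42 CPM (median 2.13), and 5 of 5 fell. The 4 proliferation genes (MKI67, TOP2A, CDK1, CCNB1) went from 0–35.7 CPM (median 5.99) to 584–699 CPM (median 648), and 4 of 4 rose. The dissociation genes went from 9737 to 420.4 CPM at the median in SCs and from 7852 to 385 in VECs, and 4 of 4 fell in each. The fiber genes went from 336 to 0.907 CPM in SCs and from 259.9 to 3.27 in VECs, and 3 of the 3 tested fell in each. In SCs and VECs the proliferation sum went from 144 to 659 and from 20.4 to 147 CPM at the median. The part of dissociation and of fiber RNA in the result was not tested, and of the adipocyte genes PLIN1 stayed at or under 2.63 CPM in FAPs at both timepoints, with CIDEC and LEP at 0 in the median donor.

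The deposited cell cycle phase allowed a comparison within 1 library. FAPs of Timepoint 2 were split per donor into cells called S or G2M and cells called G1, and 0 of 29 genes were higher and 1 lower in the former, against 3.32% and 1.75% of all genes. The exception was TM7SF2, with a log2FC of -1.84 ± 0.26 (adjusted p = 5.93e-06), lower in 9 of 9 donors. By edgeR 8 of the 29 had an unadjusted p under 0.05, and 23 had a positive log2FC. The 28 without a call lay between -0.27 and 0.50 on the log2 scale. Of these, 5 met the threshold on adjusted p and missed the one on size, all 5 higher in cells called S or G2M. HMGCS1 gave 0.22 ± 0.17 (95% interval -0.14 to 0.59), SREBF1 0.03 ± 0.11, SREBF2 0.08 ± 0.09 and INSIG1 -0.10 ± 0.11. Phase was not compared between libraries, as the median share of VECs called S or G2M went from 48.4% in muscle to 13.5% in culture while their proliferation sum went from 20.4 to 147 CPM.

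Cell types were then compared within a library. In muscle, 0 of 6 tested genes were higher and 1 lower in SCs than in FAPs, against 6.54% and 13.4% of all genes. The lower gene was SC5D, at 7.95–42.2 CPM (median 24.5) in SCs and 44.8–69.8 CPM (median 61.8) in FAPs without overlap (log2FC -1.14 ± 0.18, adjusted p = 3.77e-06). SREBF1 and SREBF2 gave 0.33 ± 0.23 and 0.47 ± 0.22. Between VECs and FAPs of muscle, edgeR called 0 of 12 tested genes, against 14.2% higher and 13.1% lower of all genes. Of the 12, 6 met the threshold on adjusted p and missed the one on size, 5 higher and 1 lower in VECs. DESeq2 called 1, SQLE, with a log2FC of 1.01, as did edgeR with the donor as a block (1.14), where the unblocked value was 0.92 ± 0.38. SREBF1 was at -0.67 ± 0.25 and SREBF2 at 0.40 ± 0.21 there, and INSIG1 was tested in neither comparison.

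At Timepoint 2 all 29 genes could be tested. SCs had 2 higher and 0 lower than FAPs, against 5.98% and 4.69% of all genes, namely TM7SF2 (3.57–12.01 CPM (median 8.48) against 1.55–4.68 CPM (median 3.17)) and PMVK (39.4–101.4 CPM (median 44.9) against 17.4–34.4 CPM (median 23.8)). The groups overlapped for TM7SF2 and were apart for PMVK, with log2FC of 1.49 ± 0.21 and 1.23 ± 0.16 (adjusted p = 7.67e-06 and 4.88e-06). INSIG1, at -0.54 ± 0.10 with every SC sample under every FAP sample, SREBF1, at 0.20 ± 0.11, and SREBF2, at 0.26 ± 0.08, were not called.

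VECs of Timepoint 2 had 0 genes higher and 6 lower than FAPs of the same library, against 13.9% and 13.4% of all genes. ELOVL6, the elongase for long-chain fatty acids, showed 5.97–43.2 CPM (median 12.4) in VECs and 71.4–96.3 CPM (median 86.7) in FAPs. FADS2 showed 11.5–35.4 CPM (median 16.02) and 64.3–119 CPM (median 84.8), and SCD 16.4–45.7 CPM (median 34.2) and 104–189.9 CPM (median 137). The 4 proliferation genes were lower in the same VEC samples, 4 of 4 (median log2FC -1.84), and their part in the result was not tested. In ELOVL6, FADS2 and SCD every VEC sample lay under every FAP sample, with log2FC of -2.53 ± 0.17, -2.32 ± 0.15 and -2.07 ± 0.15 (adjusted p = 1.44e-11, 1.79e-12 and 8.69e-11). FADS1, the next desaturase after FADS2, was at -1.603 ± 0.14, DHCR7 at -1.47 ± 0.16 and SREBF1 at -1.01 ± 0.16, the last with overlapping samples and without a call under the donor block (-0.93). SREBF2 at 0.04 ± 0.09 (95% interval -0.15 to 0.22) and INSIG1 at -0.34 ± 0.10 were not called. Of the 6 lower genes 4 belong to fatty acid synthesis and 1, DHCR7, to the sterol pathway. HMGCS1, at -0.99 ± 0.15, stood at the threshold of size and passed it in DESeq2 (-1.02), with no filter on low counts (-1.08) and with at least 30 cells (-1.02). TM7SF2 was called lower in DESeq2 (-1.02) and with no such filter (-1.06).

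Whether the change on entering culture itself differed between types was tested with an interaction term, in 2 fits that share the FAP samples. Between SCs and FAPs it was larger in SCs for 2 of 26 genes and smaller for 2, against 12.4% and 7.60% of all genes. In the same samples the term was negative for 4 of 4 proliferation genes (median -4.06), which rose less in SCs. It was also negative for 3 of 4 dissociation genes, which fell more in SCs (median log2FC of the list -5.14 against -2.80). For 4 of 4 FAP markers it was positive (4.93). The part of these lists in the result was not tested. FASN differed by 1.45 ± 0.30 and FADS2 by 1.09 ± 0.35 on the log2 scale (adjusted p = 0.000104 and 0.0122), and INSIG1 by -1.08 ± 0.35 and ACLY by -1.01 ± 0.28 (adjusted p = 0.0111 and 0.00332). In SCs FASN, FADS2 and INSIG1 had passed the low-count filter only with the culture samples counted in. The INSIG1 call was lost with the donor as a block (-0.99) or with at least 30 cells (-0.99), and the ACLY call in DESeq2 (-0.97) and when thinned to the smallest UMI total (-0.73, adjusted p = 0.269). SC5D was called larger in SCs in DESeq2 (1.01). SREBF1 and SREBF2 gave -0.14 ± 0.25 and -0.22 ± 0.22.

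Between VECs and FAPs the change was smaller in VECs for 13 of 26 genes and larger for 0, against 13.8% and 11.8% of all genes. In the same samples the term was negative for 4 of 4 proliferation genes (median -4.07), which rose less in VECs. It was also negative for 3 of 4 dissociation genes, which fell more in VECs (median log2FC of the list -4.23 against -2.80). For 4 of 4 FAP markers it was positive (2.84). The part of these lists in the result was not tested. Of the called genes SCD, DHCR7, IDI1, LSS and PMVK passed the low-count filter in FAPs only with the culture samples counted in. Of the others, MVK, SQLE, EBP, INSIG1 and FADS2 did so in VECs. The differences of all these genes, and the count of 13, are a description. HMGCS1, FDPS and CYP51A1 passed on the muscle samples alone in both types. SCD differed by -4.59 ± 0.39, DHCR7 by -2.71 ± 0.57, IDI1 by -2.20 ± 0.38, LSS by -2.11 ± 0.50 and FADS2 by -1.75 ± 0.40. HMGCS1 (-1.602 ± 0.33), EBP, a sterol isomerase (-1.51 ± 0.26), and MVK (-1.44 ± 0.34) followed, and the remaining 5 called genes lay between -1.39 and -1.03, of which PMVK, CYP51A1 and INSIG1 lost the call in DESeq2 or with at least 30 cells. The 13 comprised 5 genes of the mevalonate pathway, 2 of squalene and lanosterol, 3 of the late sterol steps, INSIG1, and 2 of fatty acid synthesis. SREBF1 at -0.46 ± 0.31 (95% interval -1.08 to 0.15) and SREBF2 at -0.49 ± 0.22 (-0.94 to -0.04) were not called, and INSIG1, at -1.03 ± 0.40, lost its call under the donor block (-0.93). With every sample thinned to the smallest UMI total, 5 of 19 tested genes were called. INSIG1 (-0.39, adjusted p = 0.577), FADS2 (-0.98), SQLE (-0.99), EBP (-0.87) and CYP51A1 (-0.72) then lost the call, IDI1 kept it at -1.47, and FASN gained one (-1.03), as it did with no filter on low counts (-1.08).

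The less frequent types followed, with fewer cells and fewer genes tested. The muscle samples alone carried 4 genes past the low-count filter in SMMCs, 2 in macrophages and 3 in LECs, of which 2, 0 and 0 rose, and the counts that follow are again a description. In smooth muscle and mesenchymal cells (SMMCs, 10 donors against 7) 11 of 13 rose and 0 fell, against 15.1% and 21.3% of all genes. ACAT2 went from 0–34.4 CPM (median 17.8) to 219.9–337 CPM (median 281) and HMGCS1 from 17.4–321 CPM (median 43.2) to 496–1026 CPM (median 601). Both were apart, with log2FC of 3.76 ± 0.23 and 2.73 ± 0.42, ahead of FDPS (2.22 ± 0.19), IDI1 (2.09 ± 0.26), FDFT1 (1.93 ± 0.26), SQLE (1.76 ± 0.39), EBP (1.70 ± 0.20) and CYP51A1 (1.41 ± 0.36). Here 2 fatty acid genes passed as well, between 1.07 and 1.24, of which FASN missed the size with the donor block (0.998). SREBF2 was at 0.12 ± 0.19 (95% interval -0.27 to 0.50), and SREBF1 and INSIG1 were not tested. The 4 SMMC markers (MYH11, RGS5, ACTA2, CNN1) went from 5135–20053 CPM (median 9065) to 1129.8–5616 CPM (median 3463) in the same samples, 4 of 4 falling, and FAP markers from 45.6–1017 CPM (median 105) to 476–1026 CPM (median 676), and their part in the result was not tested.

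In monocytes and macrophages (10 donors against 7) 7 of 11 tested genes rose and 1 fell, against 14.3% and 20.4% of all genes. HMGCS1 went from 0–75.9 CPM (median 30.1) to 197–773 CPM (median 467) (log2FC 3.57 ± 0.36), and IDI1 (2.81 ± 0.23), SQLE (2.72 ± 0.30), ACAT2 (2.65 ± 0.28), FDPS (2.33 ± 0.28), MSMO1, a sterol methyl oxidase (1.68 ± 0.34), and CYP51A1 (1.47 ± 0.29) rose with it. The gene that fell was INSIG1, from 13.9–145 CPM (median 77.0) to 22.7–56.0 CPM (median 48.8) (log2FC -1.06 ± 0.30, adjusted p = 0.00337), lower in 6 of 7 donors with overlapping samples, in contrast to its rise in FAPs. That difference between the types was not tested. In macrophages INSIG1 passed the low-count filter through the muscle samples, where it was higher. The cut was reached by 8 of 10 muscle samples and 3 of 7 culture samples, so its fall is a description. The macrophage samples of Timepoint 2 also carried FAP markers, 945–1904 CPM (median 1272) against 13.9–464 CPM (median 64.3) in muscle, while their own 4 markers (CD68, CD14, PTPRC, CSF1R), of which 2 fell, went from 1071–2323 CPM (median 1876) to 639–1537 CPM (median 976), and the part of both lists in the result was not tested.

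Lymphatic endothelial cells (LECs) had 4 donors in muscle and 7 in culture, and 2 of 13 tested genes rose and 1 fell, against 14.8% and 14.8% of all genes. The rising share thus lay near that of all genes. The log2FC was positive in 7 of the 13 and negative in 6 (median 0.07). FDFT1 and SQLE, at -0.15 to 0.07, were not called. ACAT2 and EBP rose from 3 UMIs each in muscle, with ratios of 15.2 (95% counting interval 5.17 to 74.3) and 5.62 (1.88 to 27.7), and both passed the low-count filter only through the culture samples. SC5D was called lower, at -1.15 ± 0.43 (adjusted p = 0.0342), and lost the call without donor 4 (-0.81) or donor 10 (-0.95) and with no filter on low counts (-0.73). HMGCS1 was at 11.3–250.5 CPM (median 136) in LECs of muscle, a higher median than in FAPs, SCs, VECs, SMMCs or macrophages there, and at 293–656 CPM (median 364) in culture, without overlap. Its log2FC of 1.09 ± 0.50 missed the threshold on p (adjusted p = 0.11, 95% interval -0.03 to 2.22) and passed with the donor block (1.33), in DESeq2 (1.11) and with no filter on low counts (1.49). With no such filter MVD (1.33), IDI1 (1.01) and FDPS (1.19) were called too, and FDPS also without donor 4 (1.40). With the donor block EBP and SC5D were not tested, which left ACAT2 and HMGCS1 as the called genes. The 29 genes summed to 759–1878 CPM (median 1317) in LECs of muscle, where FAPs had 541 at the median, and to 1399–2595 CPM (median 2182) in culture. PMVK was at 0 in all LECs of muscle and at least 1.78-fold higher at Timepoint 2, with 3 counts over the group as the floor, and SREBF2 was at -0.04 ± 0.37. The 3 LEC markers (PROX1, LYVE1, MMRN1) went from 2729–6499 CPM (median 5081) to 1065–1872 CPM (median 1311), 3 of 3 falling, and FAP markers from 0–47.2 CPM (median 35.8) to 235–1117 CPM (median 363), and their part in the result was not tested.

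The next comparison asked how the genes changed between passage 0 and passage 2, when FAPs and SCs had been sorted and moved to their own coatings. In FAPs of donors 4, 7 and 8 all 29 genes could be tested, and 3 rose and 0 fell, against 13.4% and 9.37% of all genes. SREBF1 was at 24.5, 32.2 and 35.1 CPM in these donors at passage 0 and at 106, 125 and 127 at passage 2. SCD was at 104, 135 and 137 and then at 321, 337 and 289 CPM. TM7SF2 was at 1.55, 4.20 and 2.81 and then at 8.96, 11.6 and 10.2 CPM. All 3 donors moved up in each gene without overlap, and the log2FC was 1.94 ± 0.15, 1.31 ± 0.14 and 1.79 ± 0.31 (adjusted p = 0.000359, 0.000709 and 0.00361). SREBF2 at 0.64 ± 0.14 (adjusted p = 0.00824) and INSIG1 at 0.44 ± 0.18 (adjusted p = 0.0778) were not called. HMGCS1, at -0.77 ± 0.29, and MVD, at -0.81 ± 0.27, were called lower only when donor 4 was left out (-1.11 and -1.14). In the same FAPs LEP, the 1 adipocyte marker that could be tested, rose (7.97 ± 0.44, from 0, 0.131 and 0.0669 to 15.2, 25.2 and 22.4 CPM). There 4 of 4 FAP markers and 2 of the 3 tested SMMC markers (median log2FC 3.42) rose. Of the proliferation genes 3 of 4 fell, and of the 4 VEC markers 1 rose and 3 fell. The part of these genes in the result was not tested.

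In SCs of donors 5, 6 and 10 the same comparison gave 1 gene higher and 1 lower of 29, against 5.67% and 4.09% of all genes. TM7SF2 was at 3.57, 9.62 and 11.8 CPM at passage 0 and at 206, 132 and 135 CPM at passage 2. The lowest of the later values was far above the highest of the earlier ones, with a log2FC of 4.14 ± 0.35 (adjusted p = 0.000927). PMVK was at 101.4, 44.0 and 40.4 and then at 19.4, 22.5 and 22.9 CPM. Its log2FC of -1.52 ± 0.34 (adjusted p = 0.0213) lost the call without donor 5, who had the highest level at passage 0 (-0.92), and, on p, without donor 6 (-1.75) or 10 (-1.79). SREBF1 gave 0.80 ± 0.25 (95% interval 0.21 to 1.39, adjusted p = 0.0637) and was called without donor 10 (1.01, adjusted p = 0.0389), and SREBF2 gave 0.18 ± 0.10 and INSIG1 0.18 ± 0.10. The muscle fiber genes, which are also made by differentiating SCs, stood at 0–1.38 CPM (median 0.907) in SCs of all donors at passage 0. In SCs of donors 5, 6 and 10 they stood at 31.2–170 CPM (median 141) at passage 2, and their part in the TM7SF2 result was not tested.

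The unsorted cultures of donors 1, 2 and 9 stayed on fibronectin, so that passage changed there without a sort or a new coating. This comparison was added after the sorted cultures had been seen. In FAPs 3 of 29 genes rose and 0 fell, against 13.4% and 10.6% of all genes, and they were TM7SF2 (2.19 ± 0.38), SCD (1.89 ± 0.19) and SREBF1 (1.73 ± 0.11). These are the 3 genes that rose in the sorted FAPs of other donors. Both comparisons rest on the same libraries of Timepoints 2 and 3, and the share of all genes that rose in both was not counted. SREBF1 was at 43.9, 34.0 and 44.6 CPM in donors 1, 2 and 9 at passage 0 and at 136, 140.4 and 138 at passage 2. SREBF2 at 0.81 ± 0.11 and INSIG1 at 0.69 ± 0.15 were not called, and FADS2 was called higher without donor 9 (1.11). Here too LEP (9.26 ± 0.36) and 2 of 4 FAP markers rose and 4 of 4 proliferation genes fell.

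In SCs of the unsorted cultures 3 of 28 tested genes rose and 7 fell, against 7.66% and 6.76% of all genes. TM7SF2 (2.67 ± 0.47), SREBF1 (2.01 ± 0.20) and SCD (1.595 ± 0.12) rose. HMGCS1 was at 745, 709 and 825 CPM at passage 0 and at 256, 337 and 304 at passage 2, and SQLE at 195, 176 and 190.3 and then at 76.7, 80.6 and 68.0 CPM. Each of the 3 donors moved down in both genes (-1.41 ± 0.13 and -1.38 ± 0.11, adjusted p = 4.48e-05 and 2.38e-05), and IDI1 (-1.37 ± 0.12), PMVK (-1.25 ± 0.20) and HSD17B7, a sterol reductase (-1.19 ± 0.16), fell as well. The remaining 2 lay between -1.07 and -1.02, FDPS without a call when donor 1 was left out (-1.05) and DHCR7 without one when donor 1 (-0.86) or 9 (-0.95) was, and MSMO1 met both thresholds when donor 2 was left out, at the limit of size. All 7 belong to the sterol pathway and none to fatty acid synthesis. In the same samples 4 of 4 proliferation genes fell (median log2FC -2.63) and LEP rose (9.04 ± 1.16). The muscle fiber genes summed to 92.5–521 CPM (median 213) at passage 2, against 0–1.38 CPM in SCs of all donors at passage 0. SMMC markers stood at 292–511 CPM, against 21.5–103 CPM. The part of these genes in the result was not tested. SREBF2 and INSIG1 gave 0.02 ± 0.12 and 0.03 ± 0.15. Whether the unsorted and the sorted SC cultures differed in these changes was not tested.

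Between cell types at passage 2, SCs of SC cultures had 1 gene higher and 1 lower of 29 than FAPs of FAP cultures, against 7.69% and 11.8% of all genes. TM7SF2 was higher (log2FC 3.93 ± 0.24, adjusted p = 0.000305). FADS2, at 46.8, 60.5 and 68.1 CPM in SCs and 133, 149 and 136 CPM in FAPs, was lower (log2FC -1.28 ± 0.15, adjusted p = 0.0018). Cell type, donors and coating cannot be told apart in this pair. INSIG1 gave -0.82 ± 0.15, SREBF2 -0.27 ± 0.12 and SREBF1 -0.84 ± 0.27, the last called without donor 6 (-1.14).

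In the unsorted cultures, where SCs and FAPs of donors 1, 2 and 9 shared a dish, 1 gene was higher and 3 lower in SCs, against 6.33% and 6.52% of all genes. TM7SF2 was higher by 1.87 ± 0.45 (adjusted p = 0.0252), a call that was lost with the donor as a block (1.83, adjusted p = 0.088), with no filter on low counts (1.84), and without donor 1 (2.26) or 9 (2.25). INSIG1 was at 41.3, 44.4 and 45.0 CPM in SCs and at 114, 105 and 106 CPM in FAPs, lower in 3 of 3 donors (log2FC -1.28 ± 0.09, adjusted p = 7e-05). CYP51A1 (-1.04 ± 0.08) and SQLE (-1.02 ± 0.10, -0.92 without donor 9) were lower too. Without donor 2, HMGCS1, FDPS and DHCR7 joined them (-1.12, -1.18 and -1.17), which made 7 called genes, and without donor 9 there were 2. SREBF1 and SREBF2 gave 0.51 ± 0.16 and -0.42 ± 0.09.

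**Figure D4:**
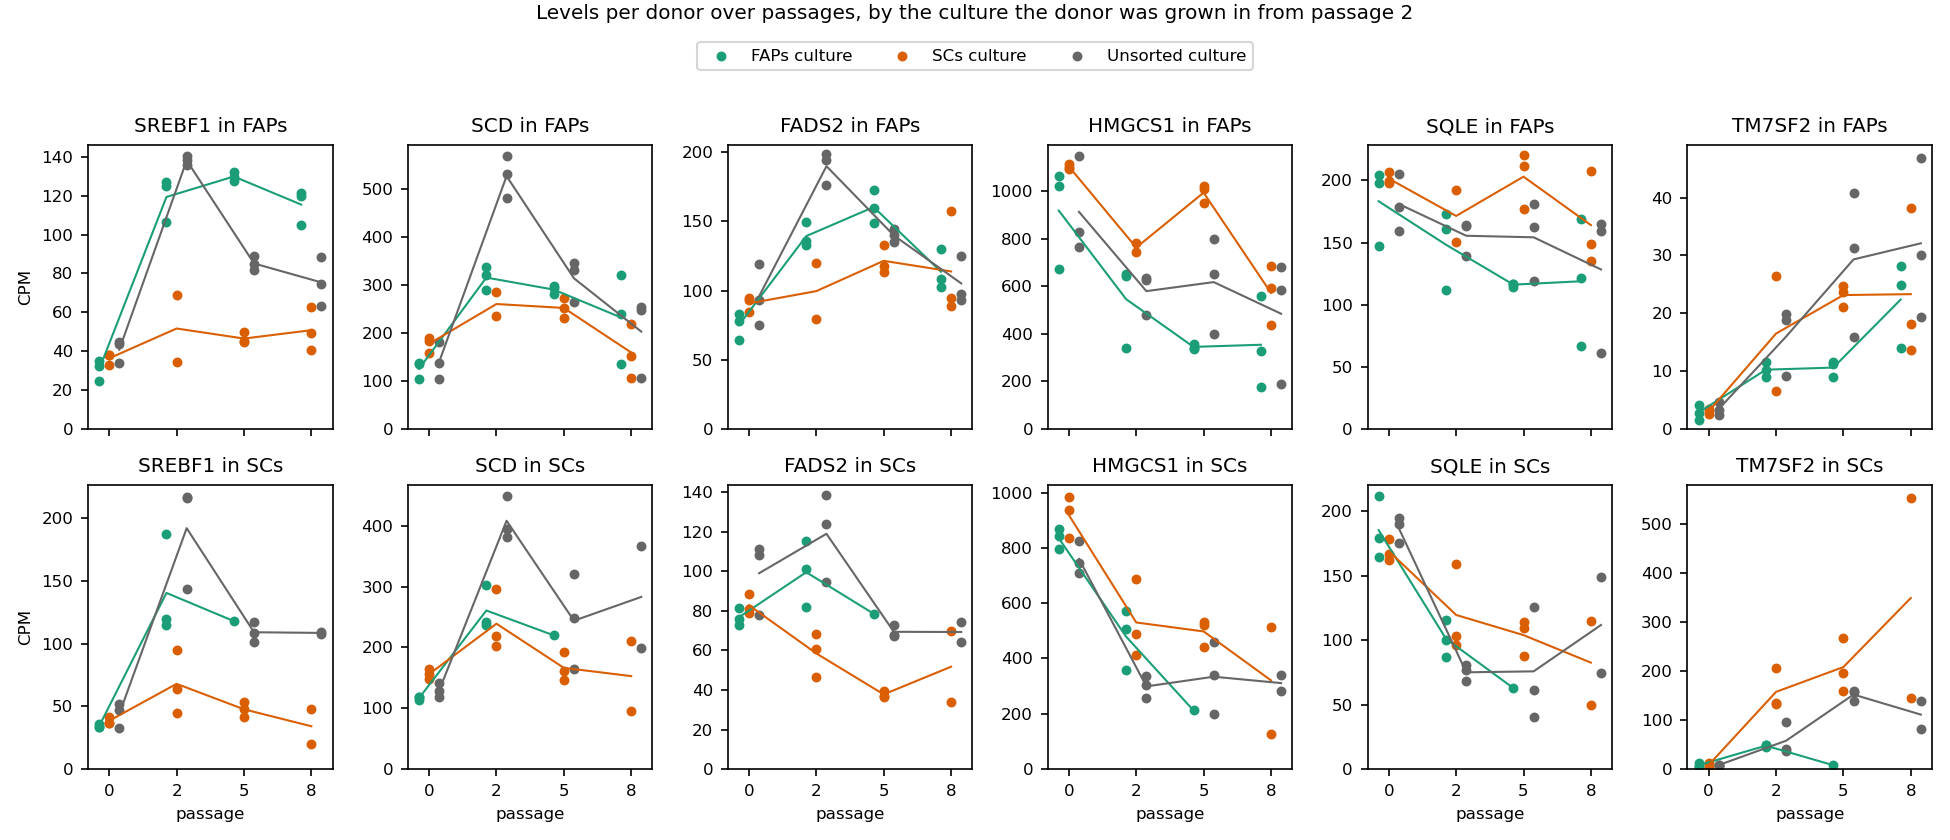
Level (CPM) of 6 genes in FAPs (top) and SCs (bottom) of each donor at passages 0, 2, 5 and 8, colored by the culture the donor was grown in from passage 2; points are donors with at least 10 cells and lines join the means. SREBF1 and SCD rise from passage 0 to 2 in FAPs of FAP and unsorted cultures, SREBF1 lies at 34.3 and 69.0 CPM at passage 2 in FAPs of SC cultures (2 donors), and TM7SF2 climbs in SCs of SC cultures to values far above those of FAPs.

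Later passages of the sorted cultures could be compared in 3 donors of each kind. In FAPs of donors 4, 7 and 8, edgeR called 0 of 29 genes between passages 2 and 5, against 0.390% higher and 0.407% lower of all genes, with 7 at an unadjusted p under 0.05, and DESeq2 called 0 as well. The log2FC was negative in 22 of the 29 (median -0.20). Of the 7 mevalonate genes 5 had an unadjusted p under 0.05 and 0 an adjusted one. The 4 proliferation genes had a median log2FC of -2.03 in the same samples and of 1.67 between passages 5 and 8. In both comparisons 0 of them were called, and their part in the values was not tested. SREBF1 gave 0.12 ± 0.10 (95% interval -0.10 to 0.35), SREBF2 0.14 ± 0.09 and INSIG1 -0.06 ± 0.14. Between passages 5 and 8 edgeR called 0, against 0.213% and 0.115%, with 3 at an unadjusted p under 0.05, and SREBF1 gave -0.17 ± 0.09, SREBF2 -0.32 ± 0.09 and INSIG1 -0.01 ± 0.30. TM7SF2, at 1.08 ± 0.24 (adjusted p = 0.0775), was called by DESeq2 (1.09) and with the donor as a block (1.07). It was at 9.04, 11.6 and 11.2 CPM at passage 5 and at 28.3, 24.8 and 14.04 at passage 8.

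In SCs of donors 5, 6 and 10, edgeR called 0 of 29 between passages 2 and 5, against 0.845% higher and 2.16% lower of all genes, with 11 at an unadjusted p under 0.05, and DESeq2 called 0. The log2FC was negative in 23 of the 29 (median -0.35), and 2 genes, both lower, met the threshold on adjusted p and missed the one on size. In the same samples 4 of 4 proliferation genes fell (median -1.60), and their part in the result was not tested. Without donor 6, MVD was called lower (-1.07). SREBF1 gave -0.56 ± 0.27 (95% interval -1.21 to 0.09), SREBF2 0.01 ± 0.10 and INSIG1 -0.37 ± 0.12. TM7SF2 stayed high, at 197, 160.0 and 268 CPM, and at passage 8, where of these only donors 6 and 10 kept 10 or more SCs, it was at 146 and 553 CPM. Over all donors the sum of the 29 genes had a median of 4052, 3646 and 3669 CPM in FAPs and of 2942, 2673 and 2544 CPM in SCs at passages 2, 5 and 8, above every muscle sample of either type.

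Of 42 further genes of these pathways, 40 were found, of which not all had enough UMIs for a test. In the list of SREBP processing, sterol uptake and further targets, 5 of 15 tested genes rose and 3 fell in FAPs between Timepoints 1 and 2, 6 of 11 rose and 2 fell in SCs, and 1 of 9 rose and 3 fell in VECs, where 20.9%, 15.8% and 15.6% of all genes rose and 22.5%, 18.5% and 19.6% fell, so that the falling share lay near that of all genes in FAPs and SCs. MYLIP, a ubiquitin ligase that lowers the uptake of lipoproteins, fell in all 3 types (-5.17 ± 0.27, -5.06 ± 0.27 and -6.26 ± 0.26). ME1, which makes NADPH for lipid synthesis, rose in FAPs (2.33 ± 0.21) and SCs (3.87 ± 0.33), and INSIG2, the relative of INSIG1, fell in FAPs (-1.45 ± 0.23). MBTPS1, the first of the proteases that cleave SREBPs, fell in FAPs (-1.41 ± 0.08) and SCs (-1.58 ± 0.09).

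The list of cholesterol efflux and esterification gave 2 higher and 0 lower of 5 in FAPs, 1 and 1 of 3 in SCs, and 1 and 1 of 3 in VECs, too few genes to set against those shares. LPCAT3, which remodels phospholipids, rose in FAPs (3.05 ± 0.17) and SCs (1.94 ± 0.22), and SOAT1, which esterifies cholesterol, rose in FAPs (2.03 ± 0.26) and VECs (1.35 ± 0.26). The isoprenoid branches gave 1 higher of 8 in FAPs and 0 of 2 and 0 of 3 in SCs and VECs. Fatty acid oxidation gave 0 higher of 8, 6 and 6 in FAPs, SCs and VECs, and 1 lower in VECs, CPT1A, the carnitine transferase of fatty acid entry into mitochondria (-1.45 ± 0.17).

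Between passages 0 and 2 in sorted FAPs, the SREBP list had 6 higher and 1 lower of 17, and the efflux list 2 higher of 6, where 13.4% of all genes rose and 9.37% fell. ABCA1, the cholesterol exporter, rose by 4.20 ± 0.24 on the log2 scale, MYLIP by 4.34 ± 0.32 and ACSS2, a cytosolic acetyl-CoA synthetase, by 2.28 ± 0.48. ABCA1 (3.68 ± 0.85) and MYLIP (1.99 ± 0.51) rose in sorted SCs too, where the lists had 3 higher of 17 and 2 higher of 7, against 5.67% of all genes. MYLIP thus moved down on entering culture and up again by passage 2 in both types. The genes of these 4 lists that are named here were picked after their values had been seen.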

How the data were processed

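The deposited files hold raw UMI counts per gene and cell, which the authors made with Cell Ranger 6.0.1 on the bovine assembly ARS-UCD1.2, with donors assigned by genotype and cells filtered within 3 median absolute deviations. Cell types, donors and phases were read from the deposited cell table, of which 10 columns were not used. Each timepoint's 2 sequencing runs, where there were 2, came as 1 matrix. Matrix sums were 102.38% and 101.55% of the table's UMI totals at Timepoints 1 and 5 and 100% at the others.

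UMIs were added up over the cells of a donor and type, and sums of 10 cells or more were tested in edgeR 4.0.16 (R 4.3.3; TMM, filterByExpr, robust quasi-likelihood F test) over all genes, with Benjamini-Hochberg adjustment. The SE is the size of the log2FC over the root of F, and 95% intervals use the t quantile at the test's degrees of freedom. Sparse ratios have exact 95% Poisson intervals, and floors of 3 counts, which like these cover counting error only. Tests were checked on simulated counts. Doublets beyond those removed by genotype were not sought.

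SREBF1, SREBF2 and INSIG1 were always named, with the called members of the 8 largest log2FC; others are given by count and range, or by name where their level or a changed call was described. Members, lists and tests were chosen with earlier results of these data known. The alternatives were DESeq2 1.42.0, no low-count filter, 30 cells at least, the donor as a block, adjusted p alone, thinning to the smallest total, and leaving out donors. Donors at both timepoints are the same animals, so the block pairs them. Deviations of a donor's paired samples correlated at a median of 0.079 in FAPs, 0.008 in SCs and 0.074 in VECs (9 pairs each).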

Additional observations from a re-analysis of the deposited data

Results flagged for a closer look

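The interaction test called the change on entering culture different from that in FAPs for the following genes. Against FAPs, the log2FC was larger in SCs for FASN (by 1.452) and FADS2 (1.095) and smaller for INSIG1 (-1.084) and ACLY (-1.014), against 12.4% of all genes larger and 7.60% smaller, and the INSIG1 call was lost with the donor block or at least 30 cells and the ACLY call in DESeq2 and after thinning. For SCs this was 2 of 26 genes larger and 2 smaller, near or under the shares of all genes. Against FAPs, the log2FC was smaller in VECs for HMGCS1 (-1.602), MVK (-1.438), PMVK (-1.039), IDI1 (-2.2), FDPS (-1.391), SQLE (-1.305), LSS (-2.115), CYP51A1 (-1.193), EBP (-1.512), DHCR7 (-2.706), INSIG1 (-1.034), SCD (-4.595) and FADS2 (-1.752), against 13.8% of all genes smaller and 11.8% larger. Of these, INSIG1 lost the call with the donor block, PMVK, CYP51A1 and INSIG1 in DESeq2 or with at least 30 cells, and INSIG1, FADS2, SQLE, EBP and CYP51A1 after thinning. SCD, DHCR7, IDI1, LSS and PMVK in FAPs passed the low-count filter only with the culture samples counted in. So did MVK, SQLE, EBP, INSIG1 and FADS2 in VECs, and FASN, FADS2 and INSIG1 in SCs. Their differences are a description. LSS and DHCR7 had too few UMIs for a test in VECs alone. The proliferation, dissociation and FAP marker lists moved in the same samples, and their part was not tested.

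In 8 of 84 groups of 9 or 10 donors 1 sample stood far from the others (Dixon's test). Chance gives about 1 in 20 groups where values are normally distributed. Levels that rest on few UMIs need not be, so the number of flags is a description. In muscle, donor 7 had 13.29 CPM of DHCR7 in FAPs (next highest 5.25) and 24.08 in VECs (next 7.804), donor 10 had 113.4 CPM of HMGCS1 (next 57.75) and 50.77 of SQLE (next 27.4) in FAPs, and donor 3 had 39.77 CPM of FASN in SCs (next 21.72). At Timepoint 2, VECs of donor 5 had 43.21 CPM of ELOVL6 (next 23.95) and 35.35 of FADS2 (next 22.48), and VECs of donor 1 had 4.171 CPM of TM7SF2 (next 1.72).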

How the results depend on the processing

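No called member changed direction under any alternative, and the direction of members without a call was not followed. Of the single values 2982 kept their side of the thresholds, 34 lost a call and 31 gained one. Counts of called genes moved by over 1.5 times as follows. Thinned to the smallest total, which left fewer genes to test, the change on entering culture was called for 14 genes of 18 in FAPs, 6 of 6 in SCs, 8 of 11 in VECs, 5 in SMMCs, 2 in macrophages and 1 in LECs, and the interaction for 1 in SCs and 5 in VECs. With no filter on low counts it was 20 in SMMCs, 19 in macrophages and 10 in LECs, with 5 for SCs and 5 for VECs against FAPs of muscle and 1 for SCs between passages 0 and 2. With at least 30 cells it was 17 in SMMCs and 2 for SCs against FAPs of muscle, and macrophages and LECs gave no value. DESeq2 and the donor block each called 1 for VECs against FAPs of muscle and 1 for FAPs between passages 5 and 8. At adjusted p alone there were 6 for VECs against FAPs of muscle, 12 and 21 for SCs and VECs against FAPs at Timepoint 2, 6 for FAPs called S or G2M against G1, 8 and 8 for sorted FAPs and SCs between passages 0 and 2, 2 for SCs between passages 2 and 5, 6 for SCs against FAPs at passage 2, and 13, 18 and 21 for unsorted FAPs, unsorted SCs and their difference.

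Leaving out 1 donor, which lets the remaining samples set the spread, gave 3 to 5 genes for sorted FAPs and 1 to 2 for sorted SCs between passages 0 and 2, 0 to 1 for SCs between passages 2 and 5, 2 to 3 for SCs against FAPs at passage 2, 3 to 4 and 8 to 11 for unsorted FAPs and SCs, 2 to 7 between these, 2 to 3 in LECs, and 0 to 0 for FAPs after passage 2. The donor as a replicate block, which keeps the donors sampled in both groups and so tests other genes, gave 23 of 29 genes in FAPs, 21 of 26 in SCs, 13 of 21 in VECs, 15 of 20 in SMMCs, 8 of 10 in macrophages and 2 of 8 in LECs on entering culture. No paired fit was possible for SCs against FAPs of the sorted cultures, which are different donors. Each timepoint is 1 library, the muscle library is the shallowest per cell, and TM7SF2 and STARD4 had too few UMIs there to be tested on entering culture with the settings of the report.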

Other observations

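At passage 5 the FAPs of the 3 kinds of culture had different mean levels of some of these genes, and as each kind holds other donors and another coating, no test was made. SREBF1 was at 129.9 ± 2.31 CPM (SD, n = 3) in FAPs of FAP cultures, 85.2 ± 3.66 CPM in unsorted cultures and 46.5 ± 2.91 CPM in the FAPs found in SC cultures. HMGCS1 ran the other way, at 345 ± 9.27 CPM, 617 ± 201 CPM and 993 ± 36.6 CPM, as did SQLE, at 116 ± 1.53 CPM, 154 ± 31.6 CPM and 203 ± 23.1 CPM. FADS2 had the order of SREBF1, at 160.3 ± 11.9 CPM, 139.9 ± 4.76 CPM and 122 ± 10.2 CPM. The samples of the 3 kinds did not overlap for SREBF1, HMGCS1 and FADS2, and those of SQLE overlapped between unsorted and SC cultures. The share of these FAPs with a deposited phase call of S or G2M was 18.8% to 23.3%, 21.6% to 29.1% and 59.0% to 71.0%. FAP markers in the same samples summed to 20731 to 25496 CPM, 8452 to 16385 CPM and 3891 to 4459 CPM, SC markers to 11.8 to 16.1 CPM, 9.60 to 14.9 CPM and 7.75 to 66.5 CPM, and the 3 samples of SC cultures held 593, 31 and 70 cells. The part of phase, of these markers and of cell number in the values was not tested.

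TM7SF2 in SCs of passage 2 was at 158 ± 41.8 CPM (SD, n = 3) in SC cultures, 58.0 ± 32.9 CPM in unsorted cultures and 47.8 ± 2.75 CPM in the SCs found in FAP cultures. FAP markers in these samples summed to 1239 to 2971 CPM, 3104 to 7001 CPM and 4693 to 6614 CPM, and their part was not tested.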
